A study of Caenorhabditis elegans with 8 samples.

Results

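The genes described here are the neuropeptide genes of Caenorhabditis elegans whose symbols begin with flp (FMRFamide-like peptides) or nlp (neuropeptide-like proteins) followed by a number. The reference gene table lists 109 of them, 31 flp and 78 nlp genes. Probes on the array could be named for 105 genes, and 100 genes (29 flp and 71 nlp) were measured, among 16829 measured genes of 20008 with a named probe. A gene counts as measured where its probe was well above background in both replicates of 1 or more groups. No probe was named for flp-4, nlp-58, nlp-78 or nlp-119, and flp-23, nlp-22, nlp-23, nlp-39 and nlp-90 were not well above background on both arrays of any group. Of these, nlp-22 encodes a peptide of the RIA interneurons with a role in larval sleep.

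Neuropeptide genes encode precursor proteins that are cut by proprotein convertases, trimmed by carboxypeptidases and, in many cases, amidated at the C terminus, then packed into dense core vesicles and released to act mostly on G protein-coupled receptors. In the worm the flp peptides share a C-terminal RF-amide and act in locomotion, feeding, egg laying and sleep, while the nlp symbols were given to a mixed collection. A subset of nlp genes, the nlp-29 group, is known for antimicrobial peptides made in the epidermis after infection or wounding. The flp and nlp genes are largely transcribed in neurons, and some nlp genes in the epidermis or intestine.

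The study measured RNA on 8 single-colour arrays in 4 groups of 2: seip-1 knockout embryos, wild-type (N2) embryos, seip-1 knockout young adults and wild-type (N2) young adults. The gene seip-1 encodes seipin, a protein of the endoplasmic reticulum that acts in lipid droplet formation. Adults were collected 52 h after the L1 stage, and embryos were taken by bleaching from adults of that age. The samples are whole animals or whole embryos from large pools of worms, so a lower number of cells of a type and less RNA per cell cannot be told apart, and the labels give no allele of seip-1 and no embryonic age.

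Levels are given as scaled intensity, the processed intensity after every array was set to the same 75th percentile, which corresponds to a scaled intensity of 2090. Between 65.7% and 75.5% of the 43603 probes were well above background. The probe for seip-1 read 4.80 and 6.81 in knockout embryos, not well above background, against 4970 and 5512 in wild-type embryos, which is at least 311-fold lower. In knockout adults it read 5.24 and 5.31, against 2445 and 2697 in wild-type adults, at least 114-fold lower. The embryo arrays were on 1 slide and the adult arrays on another, so stage and slide cannot be told apart, while knockout and wild type were compared within a slide. The median processed intensity of all probes was 265 and 214 on the knockout embryo arrays, against 74.7 and 77.4 on the wild-type embryo arrays, so that the choice of scaling bears on the embryo comparison.

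In knockout embryos most neuropeptide genes stood above their wild-type level. Of 99 genes tested, 84 were called higher and 5 lower, where called means an adjusted p under 0.05 in limma's moderated test. The median log2 difference, knockout minus wild type, was 2.24, a 4.73-fold higher level, and 77 of the 84 had a fitted difference of at least 2-fold. Among the 77 were 8 genes not well above background on either wild-type embryo array. For these only a bound can be given, in some under 2-fold. Calls were common in this comparison, with 44.6% of all 15394 tested genes higher and 40.3% lower, and the median over all genes was 0.15. The neuropeptide genes were thus called higher in 84.8% of cases and lower in 5.05%. Scaling on the array median in place of the 75th percentile moved every gene by -1.05 on the log2 scale and gave 67 neuropeptide genes higher and 14 lower, beside 32.3% and 54.1% of all genes. The neuropeptide median lay 2.10 above the median of all genes, a gap that a shift of every gene cannot change, against 1.42 with quantile normalization and 1.47 with normexp background correction. The knockout and wild-type arrays did not overlap in 95 of the 99 genes, near the 94.8% of all genes.

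Among the flp genes 26 of 29 tested were higher and 1 was lower, with a median of 2.46. Those higher ranged in log2 difference between 0.37 for flp-10 and 3.06 for flp-2. The rise of flp-10 rested on the scaling, with -0.67 under median scaling and -0.48 under quantile normalization, called lower in both, and its call was lost in each of the 8 fits that left out 1 array. Among the nlp genes 58 of 70 were higher and 4 lower, with a median of 2.04. Those higher ranged between 0.53 for nlp-81 and 3.26 for nlp-55. Under median scaling nlp-64 and nlp-81 were called lower, at -0.51 and -0.52. By their brightest measured probe, nlp-2, nlp-16, nlp-47 and nlp-62 then stood between -0.33 and -0.18 without a call. The median absolute difference between replicate arrays, over these genes, was 0.63 (log2) in knockout embryos and 0.15 in wild-type embryos, while the SD of that difference over the genes was 0.31 in knockout embryos and 0.34 in wild-type embryos. In all 84 genes called higher, knockout embryo array 1 lay above array 2, by a median of 0.64. Over all 6862 genes called higher this order held in 5844, with a median of 0.32. Leaving out knockout embryo array 1 gave 77 genes higher, and leaving out array 2 gave 87.

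**Figure D1:**
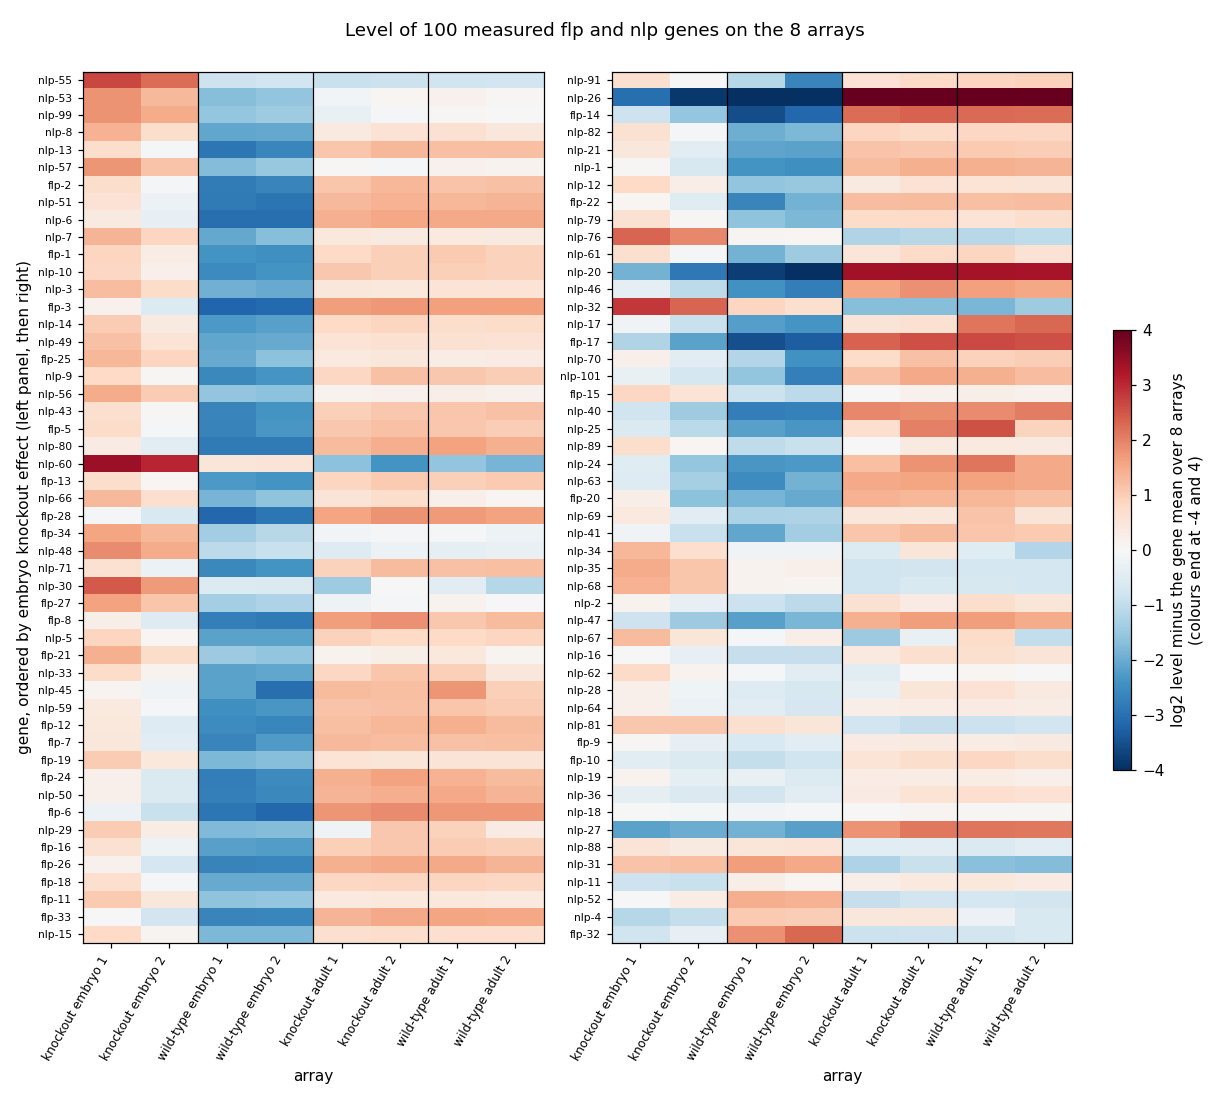
Log2 level of the 100 measured flp and nlp genes (rows) on the 8 arrays (columns), as the difference from the gene's mean over the arrays, ordered by the knockout effect in embryos. The wild-type embryo columns are the lowest for most rows, and the knockout and wild-type adult columns look alike.

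The largest rise was that of nlp-55, which read 14384 and 10763 in knockout embryos, against 1281 and 1325 in wild-type embryos. Its log2 difference was 3.26 ± 0.17 (SE; adjusted p = 3.23e-05). In adults it read 1217 and 1242 in knockouts and 1315 and 1336 in wild types. Both knockout embryo arrays stood above all 6 other arrays, which lay close together.

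The gene nlp-53 had 1814 and 1291 in knockout embryos, against 159 and 176 in wild-type embryos, a log2 difference of 3.19 ± 0.20 (adjusted p = 3.46e-05). For nlp-99 the values were 1356 and 1103 in knockout embryos and 136 and 146 in wild-type embryos (3.12 ± 0.16, adjusted p = 3.23e-05). In both genes the knockout embryos were also above the adults of both genotypes, which read between 318 and 591. The gene nlp-57, with 434 and 286 in knockout embryos and 39 and 45.6 in wild-type embryos, had the same order of groups, with adults at 126 to 144.

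The gene nlp-8, which acts with flp-13 in the ALA neuron in stress-induced sleep, read 931 and 577 in knockout embryos and 83.7 and 86.6 in wild-type embryos (3.11 ± 0.24, adjusted p = 5.69e-05). Its adult arrays read 463 to 536, below both knockout embryo arrays. For nlp-13 the values were 319 and 188 in knockout embryos, and 26.6 and 32.3 in wild-type embryos, where only 1 of 2 arrays was well above background (3.07 ± 0.27). The gene flp-2, whose peptides promote arousal, read 352 and 210 in knockout embryos and 31 and 34.5 in wild-type embryos (3.06 ± 0.25, adjusted p = 7.08e-05). For nlp-51 it was 405 and 232 in knockout embryos and 38.4 and 35.9 in wild-type embryos (3.05 ± 0.26). For nlp-6 it was 961 and 598 in knockout embryos and 92.5 and 92.2 in wild-type embryos (3.04 ± 0.23). In nlp-13, flp-2, nlp-51 and nlp-6 the adults of both genotypes were above the knockout embryos.

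Among flp genes of known role, flp-1, expressed in the AVK interneurons and acting in locomotion, read 6288 and 4268 in knockout embryos, against 659 and 635 in wild-type embryos. It was 8.01-fold higher (adjusted p = 4.18e-05). The gene flp-11, which encodes the sleep-promoting peptides of the RIS neuron, read 5084 and 3307 in knockout embryos and 807 and 830 in wild-type embryos (2.33 ± 0.21, adjusted p = 1.00e-04). Its 8 measured probes were not alike in size, with differences from 2.33 to 3.26, all positive.

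For flp-13, a second sleep gene of ALA, the values were 1210 and 772 in knockout embryos and 149 and 141 in wild-type embryos (2.74 ± 0.23, adjusted p = 7.31e-05). The genes flp-18 and flp-21 encode ligands of the receptor NPR-1, which acts in aggregation and foraging. The level of flp-18 was 1713 and 1038 in knockout embryos and 265 and 265 in wild-type embryos (2.33 ± 0.24). That of flp-21 was 1084 and 659 in knockout embryos and 146 and 134 in wild-type embryos (2.60 ± 0.25). In flp-13, flp-18 and flp-21 alike, knockout array 1 read higher than knockout array 2.

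The gene nlp-12, a cholecystokinin-like peptide gene of the DVA neuron, read 1904 and 1307 in knockout embryos and 369 and 387 in wild-type embryos (2.06 ± 0.20, adjusted p = 1.35e-04). The gene nlp-40, made in the intestine and needed for the defecation rhythm through the receptor AEX-2, read 1665 and 1068 in knockout embryos and 425 and 446 in wild-type embryos (1.61 ± 0.22, adjusted p = 5.34e-04). Its level in adults was far above that of embryos, with 10943 and 10434 in knockouts and 10632 and 11846 in wild types.

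Other nlp genes showed the same direction at different levels. The gene nlp-49, whose peptide acts through the receptor SEB-3 in arousal, read 5886 and 3830 in knockout embryos and 619 and 642 in wild-type embryos (2.91 ± 0.21). The gene nlp-14, an orcokinin-like gene, read 650 and 416 in knockout embryos and 66.5 and 71.3 in wild-type embryos (2.92 ± 0.22). The gene nlp-47, which encodes a peptide related to gonadotropin-releasing hormone, rose less, with 406 and 260 in knockout embryos and 160 and 201 in wild-type embryos (0.86 ± 0.25, adjusted p = 0.0163), and its difference was -0.19 under both median scaling and quantile normalization. The gene nlp-60 was read well above background in embryos alone, with 537 and 411 in knockout embryos and 69.3 and 70.8 in wild-type embryos. The gene nlp-76 read 2383 and 1813 in knockout embryos and 518 and 504 in wild-type embryos, above its adult readings of 208 to 236.

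In 8 genes called higher the probe was at background on both wild-type embryo arrays, so that a difference is only a bound. The 6 with the largest bounds were nlp-61, nlp-26, flp-17, nlp-45, nlp-46 and nlp-69. The gene nlp-61 was at least 3.40-fold higher, with 101 and 61.9 in knockout embryos, against readings of 17.2 and 23.9 in wild-type embryos. The gene nlp-26 read 72 and 40.1 in knockout embryos, against 13.3 and 11 in wild-type embryos, at least 2.52-fold higher. For flp-17, a gene of the BAG sensory neurons whose peptides inhibit egg laying, the values were 64.3 and 33.2 in knockout embryos and 12.8 and 14.8 in wild-type embryos, at least 2.17-fold higher. The gene nlp-45 read 48.2 and 40.3 in knockout embryos, against 10.3 and 5.53 in wild-type embryos, at least 2.07-fold higher. The gene nlp-46 read 53.8 and 33.6 in knockout embryos, against 12.9 and 10.2 in wild-type embryos, at least 1.99-fold higher. For nlp-69 the readings were 51.5 and 29.4 in knockout embryos and 16.3 and 16.9 in wild-type embryos, at least 1.82-fold higher. With normexp background correction these 6 genes had log2 differences between -0.06 and 0.22 and were not called.

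**Figure D2:**
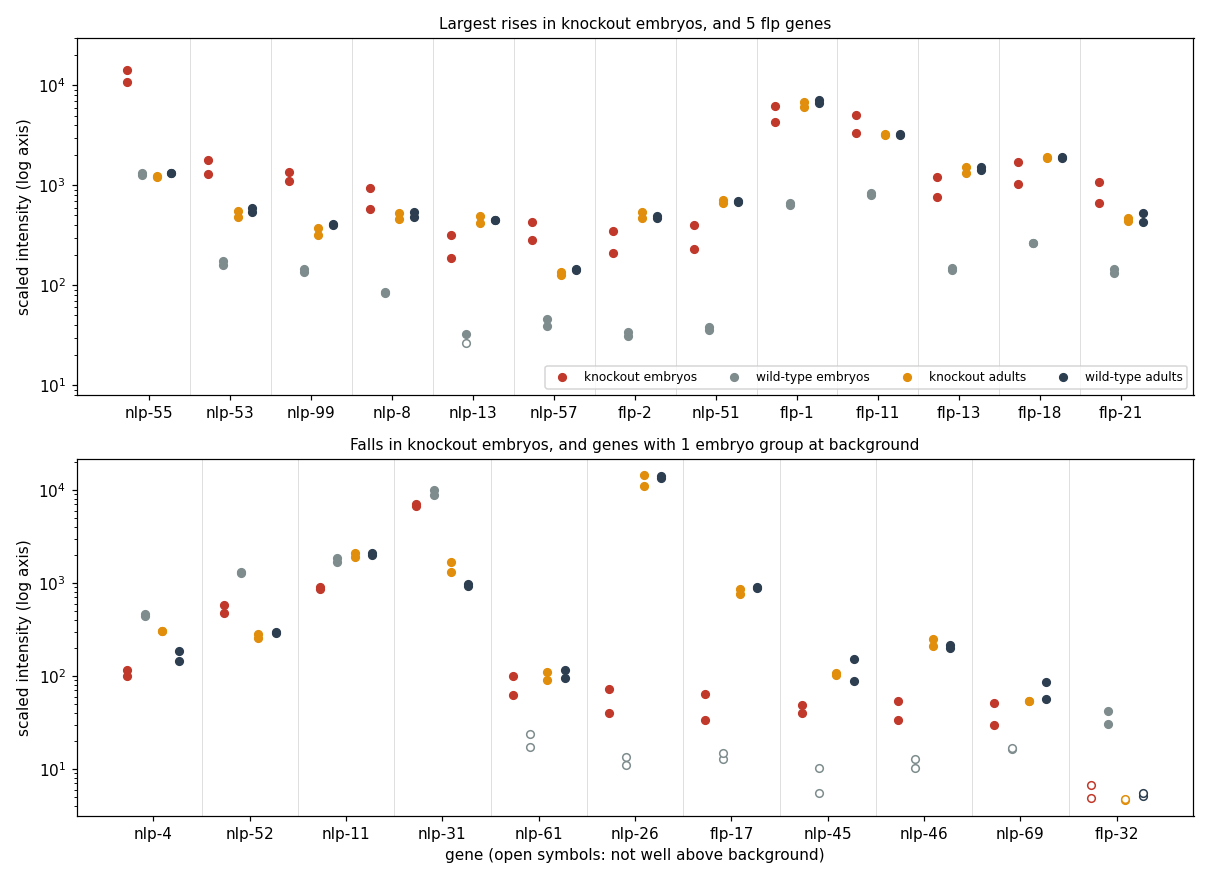
Scaled intensity on a log axis, 1 point per array, of the genes with the largest rises and of 5 flp genes of known role (top), and of the genes that fell or were at background in 1 embryo group (bottom), with open symbols for readings not well above background. In the top panel the knockout embryos lie above the wild-type embryos in each gene, and in the bottom panel nlp-4, nlp-52, nlp-11, nlp-31 and flp-32 show the opposite order.

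The 5 genes called lower in knockout embryos were nlp-4, nlp-52, nlp-11, nlp-31 and flp-32. The gene nlp-4 read 101 and 116 in knockout embryos, against 460 and 443 in wild-type embryos, a log2 difference of -2.06 ± 0.17 (adjusted p = 7.08e-05). For nlp-52 it was 473 and 586 in knockout embryos and 1326 and 1270 in wild-type embryos (-1.30 ± 0.16, adjusted p = 2.85e-04). For nlp-11 it was 897 and 864 in knockout embryos and 1872 and 1661 in wild-type embryos (-1.0 ± 0.14). The gene flp-32 was at background in knockout embryos and read 30.2 and 41.9 in wild-type embryos, at least 2.12-fold lower.

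The smallest of the 5 was nlp-31, an epidermal antimicrobial gene, with 6777 and 7118 in knockout embryos and 9859 and 8824 in wild-type embryos (-0.43 ± 0.16, adjusted p = 0.0424). Quantile normalization turned its direction (0.24). The call was also lost with a replicate block, with no filter on dim probes, and when any embryo or wild-type adult array was left out (-0.51 to -0.35).

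Another 10 genes were tested in embryos and not called, namely flp-9, flp-20, nlp-18, nlp-19, nlp-25, nlp-27, nlp-28, nlp-36, nlp-67 and nlp-88. The gene flp-20 read 221 and 58.9 in knockout embryos, so that 1 array stood apart, against 50.4 and 45.3 in wild-type embryos (log2 1.26 ± 0.55, adjusted p = 0.0695). The level of nlp-18 was close to even, with 3094 and 2995 in knockout embryos and 2864 and 2938 in wild-type embryos. The gene nlp-63 was not tested, since its probe was well above background on only 1 of the 4 embryo arrays.

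For 28 genes more than 1 probe was measured, and the brightest stood for the gene. Their embryo differences spanned more than 1 log2 unit in 6 genes (flp-12, flp-9, nlp-16, nlp-18, nlp-28 and nlp-6), which were chosen for this after their values were seen. In nlp-18 the brightest probe gave 0.07 and the other gave 3.04, with 1244 and 819 in knockout embryos against 112 and 133 in wild-type embryos. In flp-9 the brightest probe gave 0.39, while 5 of its 7 probes gave differences of 2.36 to 2.59. In flp-12, 6 probes gave 2.39 to 2.64, and 5 dim probes gave -0.54 to -0.31. Taking the mean of a gene's probes raised the number called higher to 87, with flp-9, nlp-18 and nlp-28 added. Which probe follows the gene's transcript was not tested.

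The nlp-29 group holds 11 genes, of which nlp-34, nlp-31, nlp-30, nlp-29, nlp-28 and nlp-27 stand next to each other on chromosome V. In knockout embryos 7 were higher, 1 was lower and 3 were not called, with a median of 1.43. Of all tested genes 44.6% were higher and 40.3% lower. The gene nlp-29, induced in the epidermis by fungal infection and wounding, read 5095 and 3093 in knockout embryos, against 741 and 744 in wild-type embryos (2.42 ± 0.45, adjusted p = 0.00226). The gene nlp-33 read 13026 and 8795 in knockout embryos, against 1787 and 1865 in wild-type embryos (2.55 ± 0.26). By its brightest probe nlp-27 was close to even, at 2083 and 2317 in knockout embryos and 2432 and 1999 in wild-type embryos. Its other measured probe was far dimmer in embryos, with 33.6 and 25.6 in knockouts and 23.8 and 52.8 in wild types. Wild-type adults minus wild-type embryos was 4.18 (log2) by the brightest probe and 9.66 by the other.

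In adults the replicates of several of these genes lay far apart. The gene nlp-29 read 2227 and 5299 in knockout adults and 4727 and 3132 in wild-type adults. The gene nlp-30 read 458 and 1234 in knockout adults and 893 and 561 in wild-type adults. In both, as in nlp-24, nlp-25 and nlp-33, knockout array 2 and wild-type array 1 were the high ones, and the groups overlapped. These genes are close relatives, and reading of one gene's RNA by another's probe was not measured.

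The probes of nlp-28 disagreed with each other. Its brightest probe read 8068 and 6151 in knockout embryos, against 4835 and 4515 in wild-type embryos, while 10 of its 12 probes were not well above background on either wild-type embryo array. Those 10 read 12.2 to 39.9 in knockout embryos and 4.33 to 13.2 in wild-type embryos, and 2009 to 3512 in knockout adults and 3569 to 4349 in wild-type adults. The stage difference, wild-type adults minus wild-type embryos, was 1.05 (log2) by the brightest probe and 8.43 to 9.81 by those 10. In adults these 10 gave knockout minus wild type of -0.58 to -0.55. No test was run on these probes alone.

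**Figure D3:**
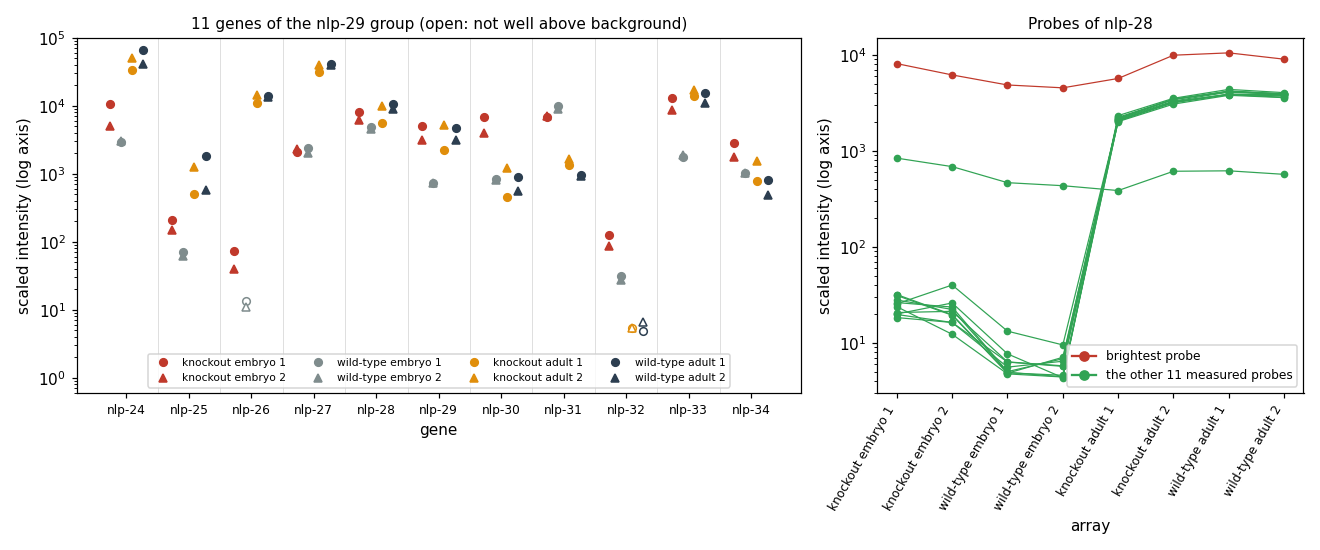
Left, scaled intensity (log axis) of the 11 nlp-29 group genes on each array, circles for array 1 and triangles for array 2, open where not well above background. Right, the 12 measured probes of nlp-28 on the 8 arrays: the brightest reads between 4515 and 10442, and 10 others stay under 40 in embryos and above 2000 in adults.

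The genes that process and release neuropeptides were also mostly higher in knockout embryos. Of the peptide maturation list, 9 of 11 tested were higher and 0 lower (median 2.41), beside 44.6% and 40.3% of all genes. The gene egl-3, a proprotein convertase that cuts the precursors, was higher by 2.41 ± 0.22, and egl-21, a carboxypeptidase E that trims them, by 3.03 ± 0.23. The gene sbt-1, the chaperone of EGL-3, was higher by 2.90 ± 0.17, and pghm-1, an amidation enzyme, by 2.60 ± 0.22. The 2 not called were kpc-1 (0.30) and bli-4 (-0.35), convertases with other substrates.

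Of the dense core vesicle list, 11 of 15 were higher and 1 lower (median 2.0), again beside 44.6% and 40.3% of all genes. The examples rund-1, ric-19, unc-104 and unc-13 rose by 2.58, 2.15, 2.0 and 3.06. The gene unc-104 encodes the kinesin that carries vesicle precursors along axons, and unc-13 a release factor. The gene eipr-1 was lower, at -0.45 ± 0.17, and unc-31, needed for dense core vesicle release, was not called (0.18).

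Receptors were higher in 33 of 41 tested genes and lower in 1 (median 1.76). The receptor gene npr-1, for flp-18 and flp-21 peptides, read 84.6 and 58.4 in knockout embryos and was at background in wild-type embryos, at least 3.3-fold higher. Also higher were npr-12, npr-13 and dmsr-1, by 2.94, 2.67 and 2.77. The 1 that was lower was egl-6, the receptor of flp-10 and flp-17 peptides, with 456 and 489 in knockout embryos and 1526 and 1667 in wild-type embryos (-1.76 ± 0.26). The peptidase list, enzymes that can cut peptides outside cells, was split, with 8 of 12 higher and 4 lower. The gene nep-2, a neprilysin, was higher by 3.26 ± 0.16, while dpf-3 stood at -1.86 ± 0.14, and nep-1, dpf-4 and dpf-5 were also lower. Of 6 further named peptide genes all were higher, among them ntc-1, a vasopressin and oxytocin relative (3.10 ± 0.18), and trh-1 (2.84 ± 0.23). These lists are described by their counts, with no test of their own. Among all tested genes 44.6% were higher and 40.3% lower, beside 33.3% lower in the peptidase list.

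Markers of whole tissues moved in the same comparison, in which 44.6% of all genes were called higher and 40.3% lower. Neuron markers were higher in 12 of 16 (median 2.38), with summed levels of 118229 and 103969 in knockout embryos, against 82925 and 86172 in wild-type embryos. Muscle markers were higher in 12 of 12 and summed to 555194 and 461595 in knockout embryos, against 129555 and 121488 in wild-type embryos. Intestine markers were higher in 9 of 10 and lower in 1, summing to 188090 and 147584 in knockout embryos and 32465 and 31702 in wild-type embryos. Epidermis markers were higher in 7 of 10, lower in 1 and not called in 2 (median 1.36). They summed to 385285 and 397002 in knockout embryos and 199945 and 189881 in wild-type embryos. Germline and oocyte markers were lower in 15 of 15 (median -2.45), with summed levels of 67100 and 78563 in knockout embryos, against 292048 and 352070 in wild-type embryos. The part of these marker differences in the neuropeptide differences was not tested. The neuron markers snb-1 and unc-119 were lower, and mec-7 and unc-33 were not called.

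**Figure D4:**
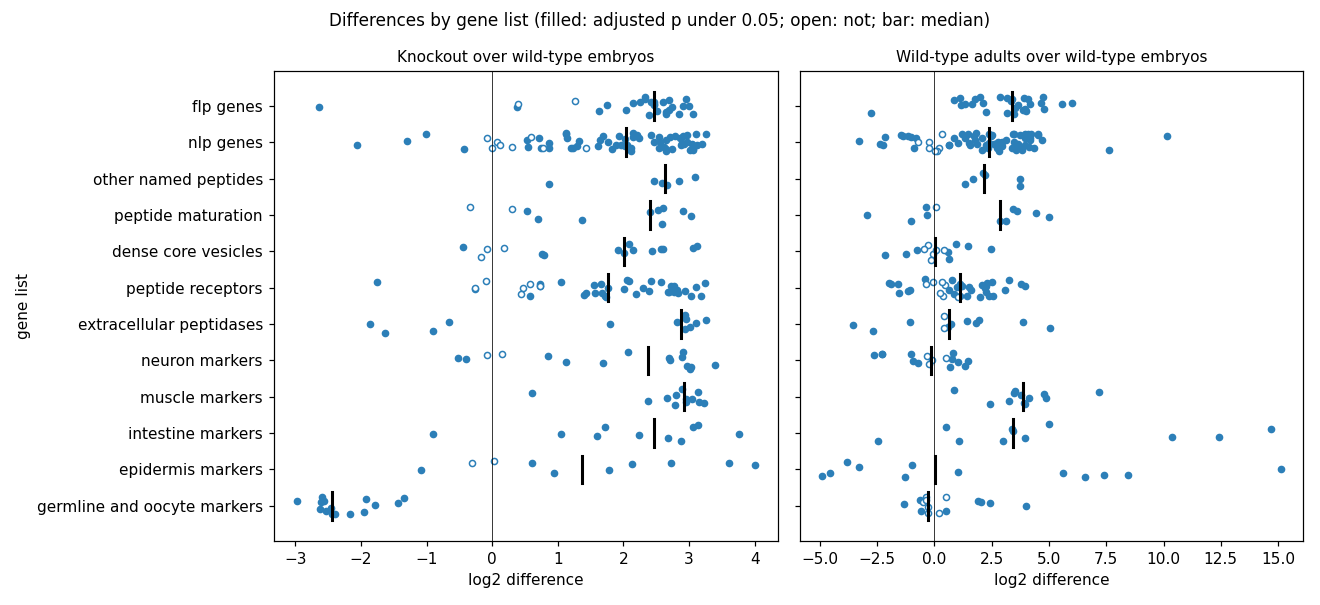
Log2 differences of single genes by list, with filled points for adjusted p under 0.05 and a bar for the list's median. In the left panel, knockout over wild-type embryos, all lists but the germline markers have a median above 0; in the right panel, wild-type adults over wild-type embryos, the flp and nlp genes have medians of 3.41 and 2.37.

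In young adults no neuropeptide gene was called. Of 96 tested, 0 passed, 3 had an unadjusted p under 0.05, and the median was -0.03, while over all genes 15 of 15005 (0.1%) were called. The 95% interval of the knockout effect lay within 2-fold either way in 79 of the 96, near the 80.7% of all genes. Each gene's SE came from 1 spread shared by all groups, so SEs at each stage also carry the spread of the other stage. Over the neuropeptide genes the median absolute replicate difference (log2) was 0.14 in knockout adults and 0.08 in wild-type adults, against 0.63 in knockout embryos. The adult arrays fitted alone also gave 0 calls among these genes. The genotypes did not overlap in 35 of the 96, beside 28.1% of all genes. The lists of maturation, vesicle, peptidase, receptor and other peptide genes also had 0 calls in limma's test, with 1, 2, 1, 0 and 0 genes at an unadjusted p under 0.05.

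The smallest p belonged to nlp-17, which read 804 and 854 in knockout adults, against 2463 and 2754 in wild-type adults. The log2 difference was -1.65 ± 0.26 (adjusted p = 0.196). Among the alternatives run, it passed only under normexp background correction, at -1.56. The gene nlp-4 had 306 and 306 in knockout adults and 187 and 144 in wild-type adults (0.90 ± 0.17, adjusted p = 0.283). The gene nlp-31 had 1325 and 1666 in knockout adults and 970 and 925 in wild-type adults (0.65 ± 0.16, adjusted p = 0.437). For flp-8, one of the flp genes that act in male mating turns, it was 5106 and 5627 in knockout adults and 3385 and 3873 in wild-type adults (0.57 ± 0.25, adjusted p = 1). These 4 genes were picked as those with the smallest p, and none passed the threshold.

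**Figure D5:**
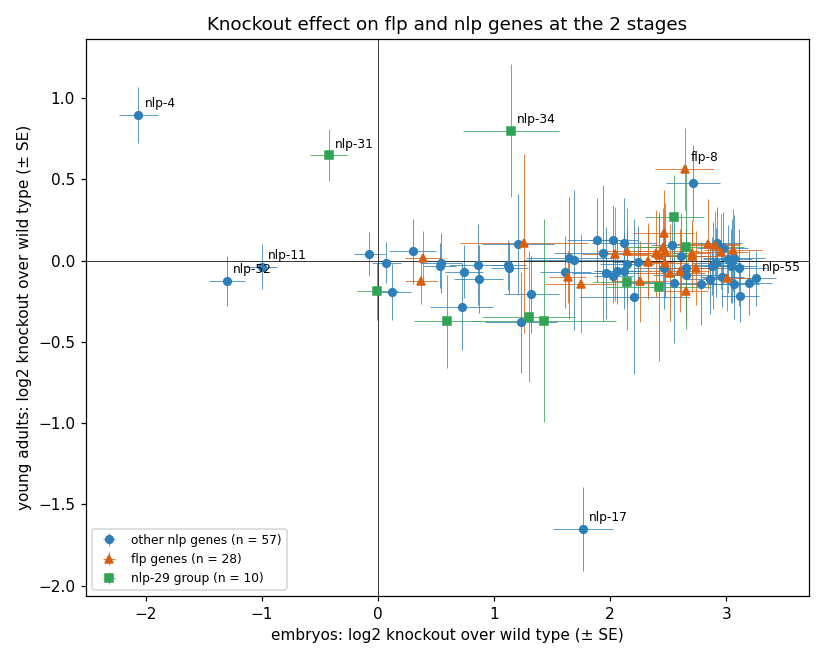
Log2 knockout over wild type in embryos (horizontal) and in young adults (vertical), with SE bars, for the flp and nlp genes tested at both stages. Nearly all points lie to the right of 0 and close to the horizontal line, with nlp-17 lowest and nlp-4 at the upper left.

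The difference of the 2 genotype effects, embryo effect minus adult effect, was called positive for 79 of 100 genes and negative for 5. Of all 16829 genes, 39% and 33.6% were so called. A negative difference need not be a weaker effect in embryos, as nlp-52 stood at -1.30 in embryos and -0.13 in adults. The largest difference was that of nlp-17, at 3.42 ± 0.36 (adjusted p = 4.39e-04), in which the embryo effect was 1.77 and the adult effect -1.65. In embryos it read 507 and 298 in knockouts, above both wild-type readings, which averaged 114 (geometric mean, n = 2). The gene nlp-4 was the largest the other way, at -2.96 ± 0.24, lower in knockout embryos and higher, without a call, in knockout adults.

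Between the stages, wild-type adults were above wild-type embryos in 82 of 100 neuropeptide genes and below in 11 (median 2.67), where 42.6% of 16117 genes were called higher and 41.4% lower (median -0.01). The gene nlp-26 read 14125 and 13457 in wild-type adults and was at background in wild-type embryos, at least 647-fold higher. The genes nlp-20 and flp-17 were at least 72.9-fold and 41.9-fold higher. The gene nlp-60 ran the other way, with background readings in wild-type adults and 69.3 and 70.8 in wild-type embryos, at least 3.02-fold lower. The neuron markers did not share the direction, with 6 of 16 higher and 6 lower (median -0.14).

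In knockout animals 46 of 99 genes were higher in adults and 24 lower (median 0.53), where 43.2% and 38.3% of 16544 genes were called. The 2 stage comparisons share no arrays. The knockout embryo effect shares the wild-type embryo arrays with the wild-type stage difference, and the knockout embryo arrays with the knockout stage difference. Among genes read in both knockout groups, nlp-55 had the largest drop in knockout adults relative to knockout embryos, at -3.34 on the log2 scale. The genes nlp-60 and nlp-32, at background in knockout adults, were at least 20.9-fold and 4.66-fold lower there.

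The genes are spread over all chromosomes, with 35 of the 109 on X. On X, 27 of 31 tested were higher in knockout embryos and 1 lower, where 62.4% of all X genes tested were higher. On the 5 other chromosomes the share higher was 80.0% to 88.2% of those tested, where it was 33.5% to 52.7% of all genes. The neighbours flp-28, flp-3 and flp-2 on X were higher by 2.70, 2.96 and 3.06, and nlp-9 and nlp-13 on V by 2.89 and 3.07.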

How the data were processed

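Each of 8 RNA samples was run on a single-colour Agilent array with the dye Cy3. Per the file headers, the authors' spot intensity values are background-subtracted and not scaled across arrays. The submitters' processing notes name Agilent Feature Extraction 10.7.1.1. The authors' deposited table gives log2 values, and taking the log2 intensity minus the array's 75th percentile and minus the wild-type mean of the stage came within 0.01 of it for all but 3 of 43603 probes (largest difference 2.52). Its column medians lay between -0.18 and 0.05, and no label states these steps.

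Spots of 1 probe were averaged as log2 intensity after control spots and outliers (4 to 12 an array) had been dropped, with 0 spots saturated. Each array's 75th percentile was then subtracted. Probes were named by sequence name (31500) or transcript accession (3674), with 8429 left unnamed. The brightest measured probe stood for a gene. All genes of all 8 arrays entered 1 model with a mean per group (limma 3.58.1, R 4.3.3, two-sided test, with 4 residual degrees of freedom and 2.39 from the prior), adjusted by Benjamini-Hochberg over all genes tested in the comparison. The 4 groups shared 1 estimate of the spread per gene. Testing a gene required 1 compared group in which the probe was well above background in both replicates. Bounds use the lowest signal above background. The arrays hold no counts, so their number limits the precision, and the labels do not say whether replicates are separate cultures, so p-values cover only the spread between samples, which may be technical.

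Values per array were given by rule for the 8 largest rises and falls per genotype comparison and for the interaction. The rule also took the 6 largest bounds, the 4 smallest p where none was called, and genes with a textbook role. Other genes, among them nlp-49, nlp-14, nlp-47, nlp-60, nlp-76, flp-20, nlp-18, nlp-30 and nlp-27, were added outside this rule and form no ranking. From each other list up to 4 genes were to be named by adjusted p, mostly with log2 differences alone. That was not kept throughout, as in the peptidase list, and further list genes were named. Genes behind counts of 5 or fewer were picked with their values in view. The genes and lists were chosen with earlier results of these data known. The symbol opt-2 matched no gene. The planned normexp alternative used median spot signals, since mean signals were not used here. The procedure was tested on simulated data, in which few genes differed between genotypes and values were already scaled. That test therefore cannot judge the scaling, or a comparison in which most genes are called. The plots come from Python 3.11.15 with matplotlib 3.10.9. No sequence is printed, since none of the files used here holds one.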

Additional observations from a re-analysis of the deposited data

Results flagged for a closer look

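The knockout effect differed between embryos and young adults by a test of the difference itself. The signed difference, embryo effect minus adult effect, was called positive for 79 of 100 genes and negative for 5. Of all 16829 genes, 39% and 33.6% were so called. The interaction log2 values (embryo effect minus adult effect) of the genes at the upper end were 3.42 for nlp-17, 3.36 for nlp-55, 3.34 for nlp-99, 3.33 for nlp-53, 3.21 for nlp-57, 3.15 for nlp-8, 3.11 for flp-1 and 3.07 for nlp-6. At the lower end they were -2.96 for nlp-4, -1.18 for nlp-52, -1.07 for nlp-31 and -0.97 for nlp-11. Stage and slide cannot be told apart in this comparison.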

How the results depend on the processing

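Over the alternatives, 58 of the 84 genes called higher in knockout embryos and 3 of the 5 called lower were called in every fit, and 75 and 4 in all 8 fits that left out 1 array. Leaving out 1 array gave 77 to 87 higher and 4 to 5 lower in knockout embryos, and 0 in knockout adults. Median scaling gave 14 genes lower in knockout embryos and 12 with a negative interaction. It also gave 17 lower in wild-type adults than embryos, and quantile normalization gave 8 lower in knockout embryos. The fit limited to probes above background on all 8 arrays could not test 11 of the 84 and 1 of the 5. Those genes could not be called in every fit. Normexp correction called 1 gene in adults, nlp-17. Of the genes called in embryos, 7 turned direction under median scaling, 7 under quantile normalization and 3 under normexp. Under median scaling flp-10, nlp-64 and nlp-81 were then called lower, and nlp-2, nlp-16, nlp-47 and nlp-62 turned without a call. Under quantile normalization flp-10 and nlp-64 were called lower, and nlp-2, nlp-16, nlp-31 (0.24), nlp-47 and nlp-62 turned without a call. Under normexp nlp-20, nlp-69 (-0.062) and nlp-91 turned without a call. The replicate block gave 81 genes higher and 4 lower in embryos, 0 in adults and 77 with a positive interaction. It gave 44 higher and 23 lower in knockout adults than knockout embryos. The block moved no count by over 1.5 times. Same-numbered arrays did not deviate together in embryos (correlation 0.0016) and tended to deviate in opposite directions in adults (-0.48). A block with the numbers crossed, added after seeing the data, gave 86 higher and 5 lower in embryos, 0 in adults, and 83 with a positive interaction. Median scaling over probes above background on all 8 arrays, also added later, gave 77 higher and 6 lower in embryos. The median of the neuropeptide genes lay 1.42 to 2.54 above that of all genes in embryos under the scaling and filter alternatives. The cause was not tested.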
